A study of Saccharomyces cerevisiae with 4 samples.

Results

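Open chromatin was compared between wild-type and swc4Δ budding yeast at the promoters of 60 genes of ribosome assembly, of 6002 protein-coding promoters in all. The 60 were chosen by name: 56 nucleolar and ribosome assembly factors, and the 4 transcriptional regulators SFP1, STB3, DOT6 and TOD6. A promoter was the 500 bp upstream of the start codon, and it held a peak when a deposited ATAC-seq peak covered at least 1 bp of it. In ATAC-seq the transposase Tn5 cuts and tags accessible DNA. All libraries came from strain BY4741 grown at 30 °C to mid-logarithmic phase, with 2 libraries labelled wild type (WT) and 2 labelled as lacking SWC4 (swc4Δ), a subunit shared by the SWR1 remodeller and the NuA4 acetyltransferase. Nothing in the labels said that libraries came from separate cultures or clones, so the spread between them may be technical. With 2 libraries against 2, the exact permutation test cannot go below p = 0.3333 (two-sided).

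Ribosome assembly begins in the nucleolus, where small nucleolar RNPs modify the precursor rRNA and the small-subunit processome folds and cuts it. Separate sets of GTPases, DEAD-box helicases and scaffold proteins then build the 60S and 40S subunits. In budding yeast these genes are known to be transcribed together in fast growth. Sfp1 is known as an activator of ribosomal genes. Stb3 binds the RRPE element, while Dot6 and Tod6 bind the PAC element and act as repressors when nutrients run short.

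Peaks numbered 2354 and 2115 in WT (replicates 1 and 2, the order of all pairs of values here), against 2826 and 2368 in swc4Δ. Each peak carried the authors' fold, whose values were those of a whole-number fragment pileup plus 1, divided by a single background per library plus 1. That background was 22.6 and 24.0 fragments in WT, against 24.4 and 25.5 in swc4Δ. The lowest listed fold was 1.61 and 1.56 in WT, against 1.54 and 1.55 in swc4Δ, so a promoter without a peak had no opening detectable at this depth and was not shown to be closed. SWC4 itself (chromosome VII, 498476 to 499906, sacCer3) had 0 peaks over its gene or promoter in each of the 4 libraries, which leaves the deletion unchecked. On chromosomes IV, V, VIII and XI peaks were more frequent in swc4Δ at promoters of all kinds. There 45.8% and 38.0% of 1665 promoters held a peak in WT, against 66.8% and 65.4% in swc4Δ, so genes on these 4 chromosomes are given apart.

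In each of the 4 libraries the assembly genes had a promoter peak less often than all promoters. Of the 60 promoters, 25 and 20 held a peak in WT, against 26 and 20 in swc4Δ. As shares these were 41.7% and 33.3% in WT, against 46.3% and 38.6% of all promoters. In swc4Δ they were 43.3% and 33.3%, against 55.9% and 44.6% of all promoters. Mean shares were 37.5% ± 5.89 in WT, against 38.3% ± 7.07 in swc4Δ (SD, n = 2 each), a difference of 0.833 points that was smaller than the spread between libraries. With only peaks of a −log10 q of at least 5 the difference was 8.33 points, larger than the spread within genotypes there (pooled SD 7.45). Over all promoters the difference was 7.83 points without that threshold, and it was not computed with it. With all peaks, leaving out 1 library moved the difference at the 60 genes between -4.17 points (without swc4Δ replicate 1) and 5.83 points (without swc4Δ replicate 2). All promoters gave means of 42.5% ± 5.48 in WT, against 50.3% ± 7.999 in swc4Δ (SD, n = 2 each).

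**Figure D1:**
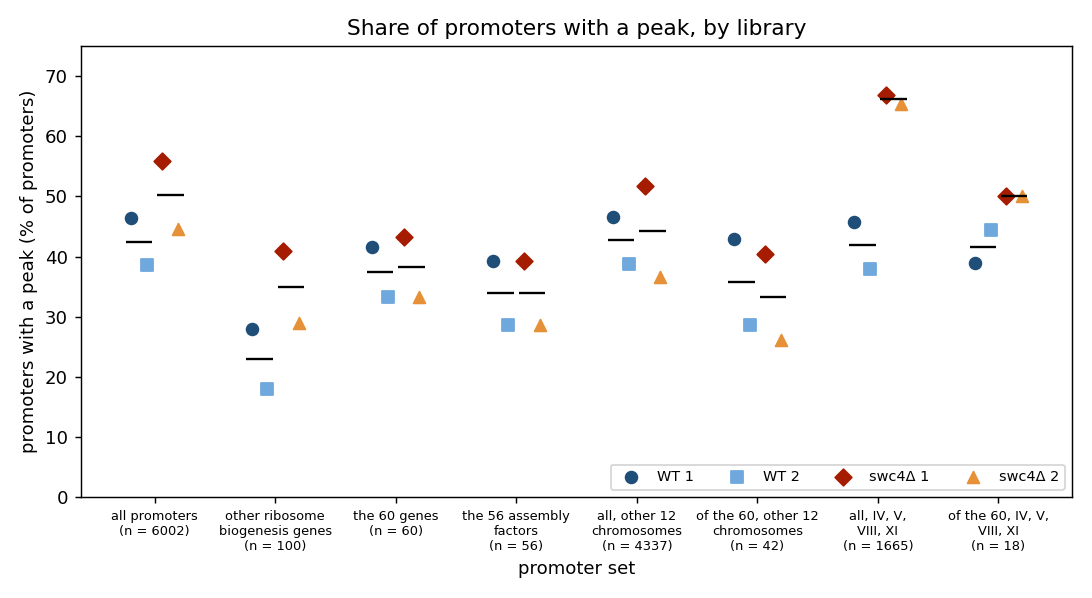
Share of promoters with a peak (%) in each library for 8 promoter sets, with the number of promoters under each name; symbols are libraries and black bars the mean of the 2 libraries of a genotype. The 60 genes gave 41.7% and 33.3% in WT, against 43.3% and 33.3% in swc4Δ, with the genotypes overlapping, while the sets on chromosomes IV, V, VIII and XI were higher in both swc4Δ libraries.

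The counts differed by chromosome. On the other 12 chromosomes 18 and 12 of 42 promoters held a peak in WT, against 17 and 11 in swc4Δ, with overlap between the genotypes. All 4337 promoters there gave shares of 46.5% and 38.8% in WT, against 51.8% and 36.7% in swc4Δ. On IV, V, VIII and XI, 7 and 8 of 18 promoters held a peak in WT, against 9 and 9 in swc4Δ. As shares these were 38.9% and 44.4% in WT, against 50.0% and 50.0% in swc4Δ. Both swc4Δ libraries thus lay above both WT libraries on the 4 chromosomes, as they did for all promoters there, but by less. The mean difference was 8.33 points at the 18 genes and 24.2 points at all promoters there. In WT replicate 2 the 18 genes stood above all promoters there (38.0%).

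A peak in all 4 libraries was found at 13 of the 60 promoters (21.7%), against 31.1% of all promoters. No peak in any library was found at 23 (38.3%), close to the 37.4% of all promoters. The other 24 promoters held a peak in 3 libraries (3 genes), in 2 (9 genes) or in 1 (12 genes). Among the 56 assembly factors alone, 10 were open in every library and 23 in none (41.1%). With only peaks whose summit lay inside the promoter, 6 of the 60 were open in every library.

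**Figure D2:**
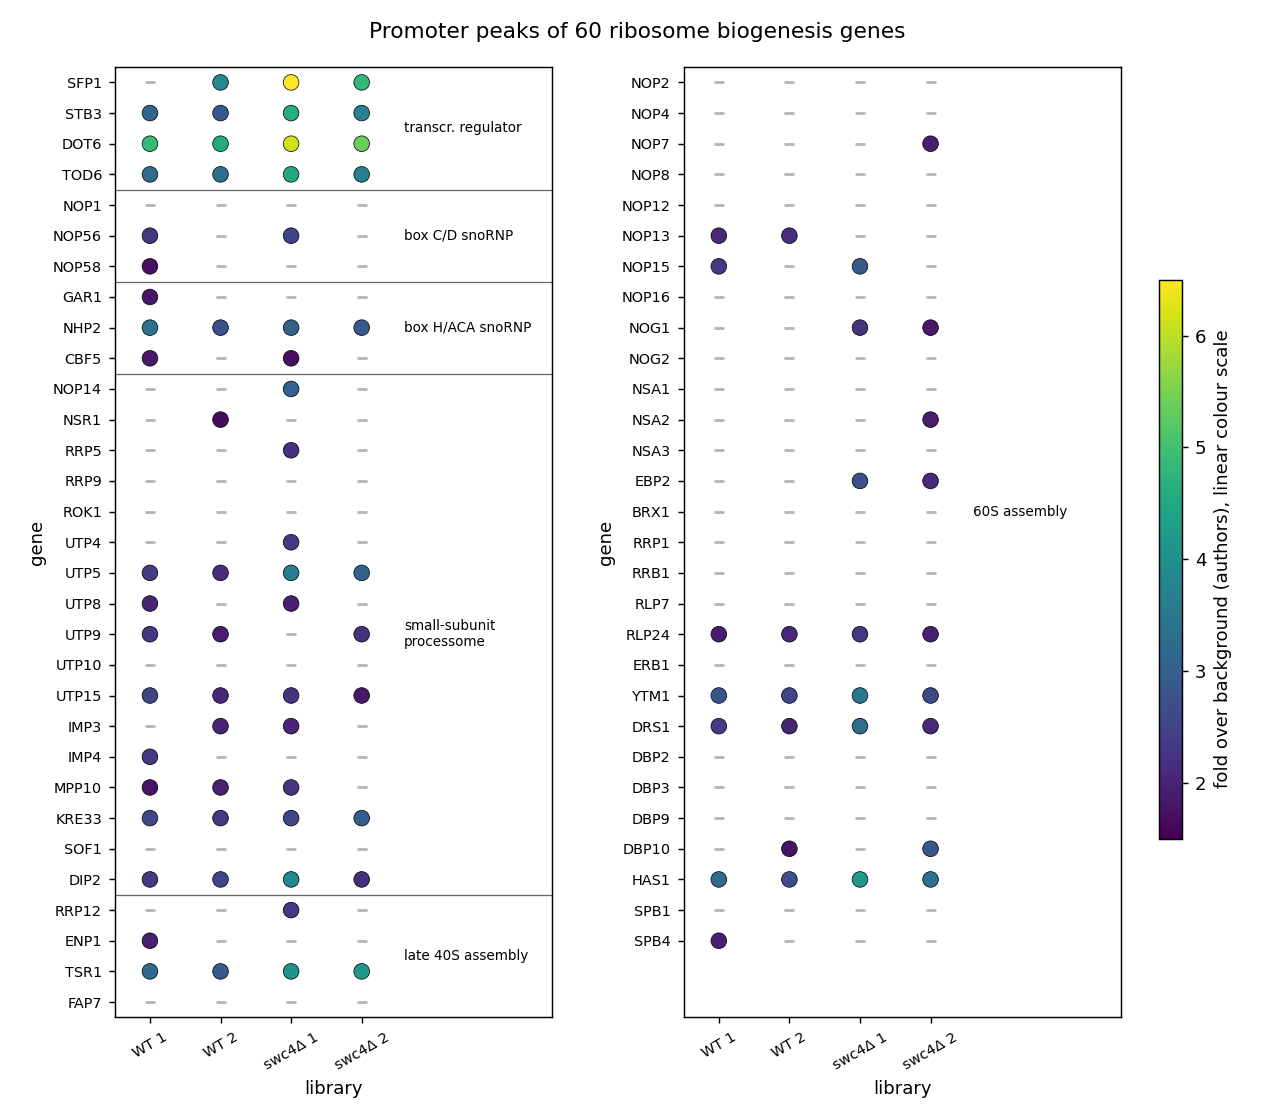
Peak fold (the authors' fold over background, colour) at each of the 60 promoters in each library, grouped by role; grey dashes mark no peak. SFP1 and DOT6, at the top left, hold the highest folds (up to 6.50), and 17 of the 29 genes of 60S assembly, in the right panel, have dashes in all 4 libraries.

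The regulators and the factors differed in strength of peak. DOT6 (YER088C, chromosome V, 333176 to 335188) had folds of 4.87 and 4.56 in WT, against 6.15 and 5.36 in swc4Δ. These lay at percentiles 98.3, 97.4, 96.4 and 98.2 of their lists, with 100 the highest fold. The DOT6 peaks were wide, at 2929 and 2230 bp in WT, against 1318 and 2429 bp in swc4Δ. Each covered the whole promoter and reached into the gene. TOD6 (YBL054W, II, 117589 to 119166) had folds of 3.26 and 3.28 in WT, against 4.53 and 3.66 in swc4Δ. STB3 (YDR169C, IV, 792348 to 793889) had 3.13 and 2.88 in WT, against 4.61 and 3.70 in swc4Δ. SFP1 (YLR403W, XII, 925568 to 927619) had no promoter peak in WT replicate 1, a fold of 3.88 in WT replicate 2, and 6.50 and 4.79 in swc4Δ. The absence rests on the promoter's edge: WT replicate 1 had a peak of fold 3.98 at 924427 to 925067 that stopped 1 bp short of it. In every library each of the 4 regulators thus had a peak touching its promoter or, in that 1 case, beside it. The summit lay inside the promoter at 0 of 3 and 1 of 4 in WT, against 1 of 4 and 2 of 4 in swc4Δ. At SFP1 the peaks covered 36 bp of the promoter in WT replicate 2, and 130 and 55 bp in swc4Δ. Their summits lay nearest to the start codon of the divergent gene DUS3. Peaks touching a regulator's promoter lay at list percentiles from 74.1 to 98.3. Folds of different lists were not compared directly.

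Peaks at the assembly factors ranked low. Their median list percentile was 37.3 and 35.3 in WT, against 41.6 and 38.8 in swc4Δ, over 22, 16, 22 and 16 promoters with a peak. For all promoters with a peak the medians were 60.05 and 65.2 in WT, against 60.2 and 61.7 in swc4Δ. In each of the 4 libraries the factors thus lay below and the regulators above the median of all promoters. The regulators also had longer gaps to the upstream gene, with a median of 758 bp against 332 bp for the factors. Over all promoters rank was highest where that gap was longest, as given below. Factors and regulators were not compared at equal gap. The order of factors and all promoters differed by chromosome. On IV, V, VIII and XI the 5, 6, 7 and 7 factors with a peak had medians of 45.0 and 32.0 in WT, against 60.2 and 68.3 in swc4Δ, where all promoters had 63.4, 65.2, 63.9 and 61.7. In swc4Δ replicate 2 the factors there thus lay above all promoters. On the other 12 chromosomes the factors' medians were 37.3 and 38.1 in WT, against 30.0 and 32.0 in swc4Δ, each below the 59.2 to 63.5 of all promoters. Peaks at factors were also narrower, with medians of 317 and 363.5 bp across in WT, against 372.5 and 455.5 bp in swc4Δ, where all promoters had 498 and 482 bp, and 512 and 530 bp. No test was run on either difference, since the genes were chosen by name with earlier results known.

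**Figure D3:**
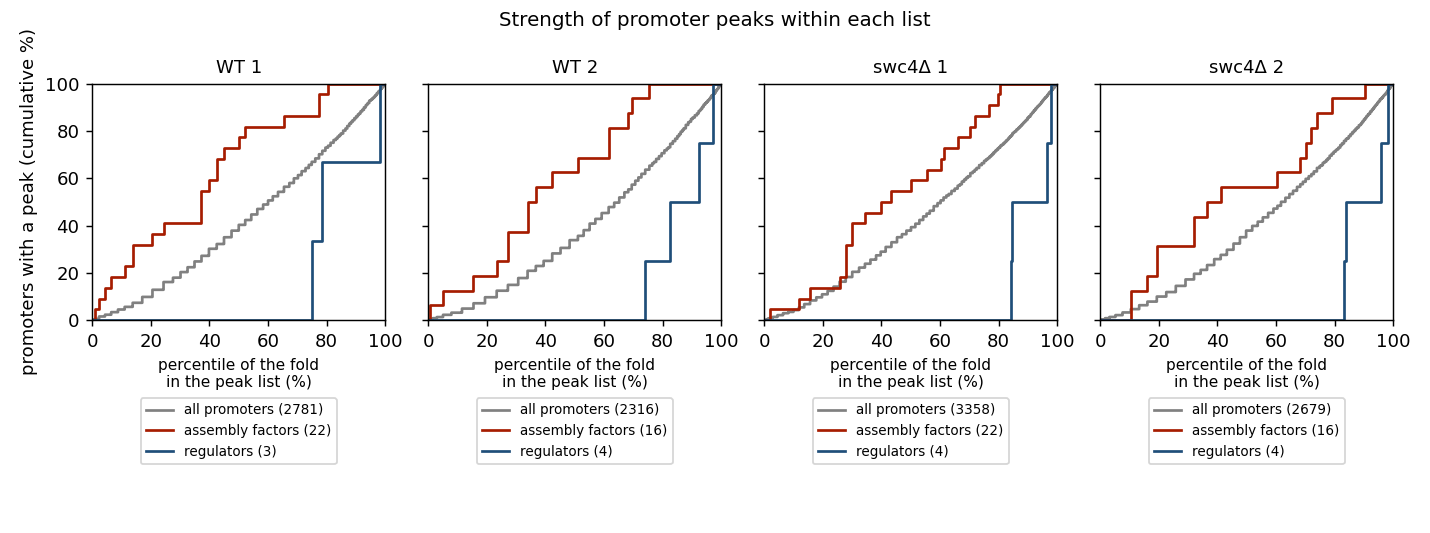
Cumulative share (%) of promoters with a peak against the percentile of the peak's fold in its list (%), with 1 panel per library and the number of promoters in brackets. The curve of the assembly factors lies above and left of that of all promoters over most of each panel, with medians of 35.3 to 41.6 against 60.05 to 65.2, and the regulators start at 74.1 or higher.

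Of the 6 genes of the small nucleolar RNPs, 1 had no peak in any library and 1 had a peak in all 4. NOP1 codes for the rRNA methyltransferase of the box C/D particles, and its promoter held no peak in any library. A peak began just inside the gene, 34 and 97 bp past the promoter in WT and 42 bp past it in swc4Δ replicate 2, with folds of 1.91, 1.92 and 2.19. Its partner NOP56, a scaffold protein of the particle, had folds of 2.29 in WT replicate 1 and 2.48 in swc4Δ replicate 1, and NOP58 had 1.69 in WT replicate 1 alone. Of the box H/ACA genes, NHP2 was open in all 4 libraries. Its peak had folds of 3.35 and 2.72 in WT, against 3.07 and 2.91 in swc4Δ, at list percentiles 80.5, 69.5, 61.2 and 70.1. CBF5, the pseudouridine synthase, had folds of 1.82 and 1.69 in the replicate 1 libraries of WT and swc4Δ. GAR1 had a fold of 1.78 in WT replicate 1 alone, with its summit 160 bp inside the gene.

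Of the 17 processome genes, 8 and 8 held a peak in WT, against 10 and 5 in swc4Δ, as shares 47.1%, 47.1%, 58.8% and 29.4% where all promoters had 46.3%, 38.6%, 55.9% and 44.6%. A peak in at least 1 library was found at 13 of the 17 (76.5%, against 62.6% of all promoters). UTP5, UTP15, KRE33 and DIP2 were open in every library. UTP4, UTP8, UTP9 and UTP10, which code with UTP5 and UTP15 for the early-binding UtpA subcomplex, were not: UTP4 held a peak in swc4Δ replicate 1 only, UTP8 in the replicate 1 libraries, UTP9 in 3 libraries and UTP10 in none. MPP10, IMP3 and IMP4, whose products form 1 complex, held a peak in 3, 2 and 1 libraries, with folds between 1.74 and 2.29. RRP9, ROK1 and SOF1 held none.

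Genes of 60S assembly had the highest share of promoters without a peak among the roles. Of these 29 genes, 7 and 6 held a peak in WT, against 7 and 9 in swc4Δ, and 17 (58.6%, against 37.4% of all promoters) held none in any library. The 17 included NOP2, an rRNA methyltransferase, the GTPase gene NOG2, the helicase genes DBP2, DBP3 and DBP9, and RRB1, a chaperone of the ribosomal protein Rpl3. NOP4, NOP8, NOP12, NOP16, NSA1, NSA3 (CIC1 in the gene table), BRX1, RRP1, RLP7, ERB1 and SPB1 made up the rest. NOP7, ERB1 and YTM1, whose products form 1 complex, went separate ways: NOP7 had a fold of 1.92 in swc4Δ replicate 2 only, ERB1 had no peak and YTM1 was open in all 4 libraries. Of the late 40S genes, TSR1 was open in all 4 libraries, RRP12 and ENP1 in 1 each, and FAP7 in none.

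At the 23 promoters without a peak the nearest summit lay outside the promoter by construction. Its median distance from the start codon was 2586 and 3333 bp in WT, against 2401 and 3072 bp in swc4Δ. More than 1000 bp separated it from the start codon at 20 and 22 genes in WT, against 22 and 20 in swc4Δ. NOP1 was the nearest in 3 of the 4 libraries, at 128, 192 and 236 bp, all inside its gene. The same distances over all promoters without a peak were not computed, so these have no background.

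Between the genotypes 2 of the 60 promoters gained a peak, NOG1 and EBP2, and 1 lost it, NOP13. A gain meant that both swc4Δ lists and no WT list had a peak there, and a loss the opposite. These are 3.33% and 1.67% of the 60, against 5.23% and 1.05% of all promoters, so neither share stood far from the background. On IV, V, VIII and XI 13.8% of all promoters were gained and 0% lost, and of the 18 genes there EBP2 was gained. On the other 12 chromosomes the background was 1.96% gained and 1.45% lost, and of the 42 genes there NOG1 was gained and NOP13 lost.

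EBP2 (YKL172W, XI, 125759 to 127042), needed to process the precursor of the large-subunit rRNA, had folds of 2.72 and 2.08 in swc4Δ. Counting error alone gave 95% Poisson intervals of 2.12 to 3.44 and 1.57 to 2.70 for these folds, from pileups of 68 and 54 fragments. Its summits lay 216 and 162 bp upstream of the start codon, nearer to EBP2 than to any other gene's start, and the nearest WT summits lay 1502 and 1497 bp downstream. NOG1 (YPL093W, XVI, 370978 to 372921), a GTPase of 60S assembly, had folds of 2.25 and 1.81 in swc4Δ, at list percentiles 27.8 and 10.4. Its summits, 196 and 281 bp upstream, lay nearer to the start codon of the divergent gene SEC62 than to its own. WT replicate 1 had a peak of fold 1.74 that ended 114 bp beyond the promoter. NOP13 (YNL175C, XIV, 307401 to 308612), a nucleolar RNA-binding protein gene, had folds of 2.08 and 2.20 in WT, with intervals of 1.54 to 2.74 and 1.66 to 2.86. Each of the 3 genes had a peak of modest fold in the libraries that held it, and intervals cover counting error only.

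These calls rest on few libraries. Only EBP2 was still gained at a −log10 q of at least 5, where 0 genes were lost. Without swc4Δ replicate 1, 4 genes were gained, with NOP7 and NSA2 added. Without swc4Δ replicate 2, 6 were gained, with NOP14, RRP5, RRP12 and UTP4 added. Losses numbered 6 without WT replicate 2 and 2 without each of the other libraries in turn. Leaving out a library loosens the call at every promoter, and the counts over all promoters were not computed, so these numbers have no background. EBP2 and NOG1 stayed gained and NOP13 stayed lost in each of these 4 repeats by construction. NOG1 was not gained with equal numbers of peaks per list, where EBP2 alone was, nor with promoters of 1000 bp, where EBP2 and SPB1 were. With promoters of 300 bp NOG1, EBP2 and STB3 were gained, with no count over all promoters at that length.

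Among the promoters open in only some libraries, SFP1 had the highest fold of all 60, and the others had folds up to 3.03 (NOP14 in swc4Δ replicate 1). Of the 12 genes with a peak in 1 library, 5 had it in WT replicate 1 (NOP58, SPB4, IMP4, GAR1 and ENP1) and 4 in swc4Δ replicate 1 (NOP14, RRP5, RRP12 and UTP4). WT replicate 2 held that of NSR1, and swc4Δ replicate 2 those of NOP7 and NSA2. The replicate 1 libraries, which had more peaks in their genotype, shared 4 genes with neither replicate 2 library: NOP15, NOP56, UTP8 and CBF5. At factors open in 1 to 3 libraries, a class that leaves out SFP1, the median fold was 1.99 and 1.92 in WT, against 2.27 and 2.00 in swc4Δ, near the lowest listed folds of 1.54 to 1.61. At factors open in all 4 it was 2.52 and 2.42 in WT, against 3.39 and 2.76 in swc4Δ. All promoters showed the same order, with medians of 2.20, 2.04, 2.44 and 2.19 in 1 to 3 libraries and 3.09, 2.76, 3.94 and 3.06 in all 4.

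To compare strength between genotypes, folds were ranked in each library among the 1867 promoters with a peak in all 4 libraries, so that each ranking had the same length. The 13 assembly genes in this set had median percentiles of 37.5 and 36.8 in WT, against 39.4 and 47.7 in swc4Δ, and 8 of the 13 averaged under 50. DOT6 stood highest, at 95.7 and 94.5 in WT, against 90.9 and 96.2 in swc4Δ, followed in the mean over libraries by TOD6 (63.7), TSR1 (61.5) and STB3 (59.5). RLP24, whose product holds a place that Rpl24 later takes, stood lowest with a mean of 4.91, then UTP15 (8.67), the helicase gene DRS1 (14.5) and KRE33 (26.1), the acetyltransferase of small-subunit rRNA. The means of TOD6, TSR1 and STB3 lay closer together than the spread of TSR1 over libraries, from 53.2 to 79.6. Without IV, V, VIII and XI the mean over libraries of the median percentile was 28.4, and it was 40.3 with them.

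**Figure D4:**
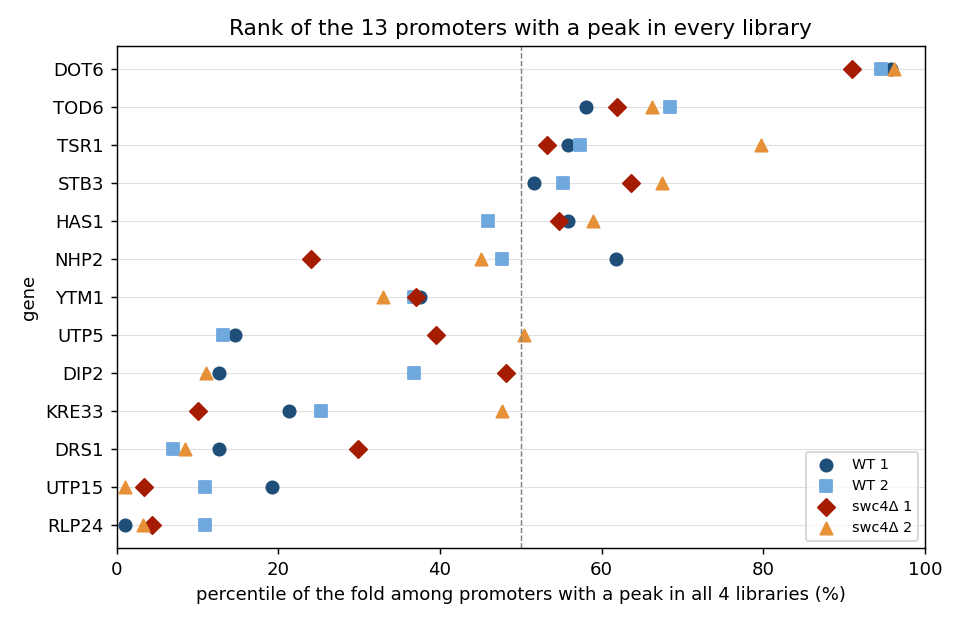
Percentile of the fold (%) among the 1867 promoters with a peak in all 4 libraries, for the 13 assembly genes in that set, with 1 symbol per library; the dashed line marks 50. UTP5 and STB3 lie further right in both swc4Δ libraries than in both WT libraries, UTP15 and NHP2 further left, and the genotypes overlap for the other 9.

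The genotypes did not overlap at 4 of the 13 genes, with 2 higher and 2 lower in swc4Δ. Over the whole set 24.4% of promoters were higher and 27.2% lower in this way, so 2 of 13 in each direction is no more than the background. UTP5 (YDR398W, IV, 1267471 to 1269402) stood at 14.7 and 13.2 in WT, against 39.4 and 50.4 in swc4Δ, 30.99 points higher in the mean (exact permutation p = 0.3333, the smallest possible, n = 2 and 2). STB3 stood at 51.6 and 55.2 in WT, against 63.6 and 67.5 in swc4Δ, 12.1 points higher (exact permutation p = 0.3333). With promoters of 300 bp neither UTP5 nor STB3 held a peak in all 4 libraries, and STB3 counted as gained. Both genes lie on chromosome IV. With each fold divided by the median of its own chromosome, UTP5 was 20.0 points higher and STB3 3.08.

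NHP2 (YDL208W, IV, 87512 to 87982), a core protein of the box H/ACA particles, went the other way on the same chromosome. It stood at 61.7 and 47.7 in WT, against 24.0 and 45.0 in swc4Δ, a difference of -20.2 points (exact permutation p = 0.3333). Relative to its chromosome the difference was -32.8 points, and without swc4Δ replicate 1 it was -9.60. UTP15 (YMR093W, XIII, 454015 to 455556) stood at 19.2 and 10.95 in WT, against 3.45 and 1.10 in swc4Δ, a difference of -12.8 points (exact permutation p = 0.3333). Without WT replicate 2 that was -22.9. The UTP15 peaks in swc4Δ were weak, with folds of 2.25 and 1.81 at list percentiles 27.8 and 10.4. At a −log10 q of at least 5, or with equal numbers of peaks per list, UTP15 no longer held a peak in all 4 libraries.

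Summits marked where the peak touching a promoter was highest, inside the promoter or not. They lay beyond the promoter at 8 and 5 genes in WT, against 7 and 5 in swc4Δ. At 1 gene in WT replicate 1 the summit lay inside the gene. The median distance from the start codon was 253 and 306.5 bp in WT, against 273 and 406.5 bp in swc4Δ. Over all promoters it was 272 and 308.5 bp, then 261 and 297 bp. swc4Δ replicate 2 stood apart from the other 3 libraries, and without it the difference between genotypes in the median was -6.75 bp, against 60 bp with it. DIP2, a processome scaffold gene, had its summit at 124 and 118 bp in WT, against 124 and 122 bp in swc4Δ. NHP2 and TSR1 kept theirs within 130 to 148 bp and 205 to 243 bp. The regulators' summits lay further out, from 470 to 536 bp at STB3, from 358 to 732 bp at DOT6 and from 818 to 844 bp at SFP1.

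Summits lay over 50 bp apart between genotypes, without overlap, at 2 of the 13 genes open in every library (16.4% of the 1867 promoters). UTP15 had its summit at 156 bp in both WT libraries and at 307 and 400 bp in swc4Δ, where its folds were 2.25 and 1.81. KRE33 (YNL132W, XIV, 375321 to 378491) had it at 365 and 233 bp in WT and at 474 and 478 bp in swc4Δ. At UTP15 the WT summits lay nearest to its own start codon and the swc4Δ summits nearest to that of the divergent gene AIP1. At KRE33 the summit was nearest to its own start in WT replicate 2 and to that of the divergent gene FYV6 in the other 3 libraries. Peaks there were 365 to 685 bp wide and reached into both promoters in all 4 libraries.

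**Figure D5:**
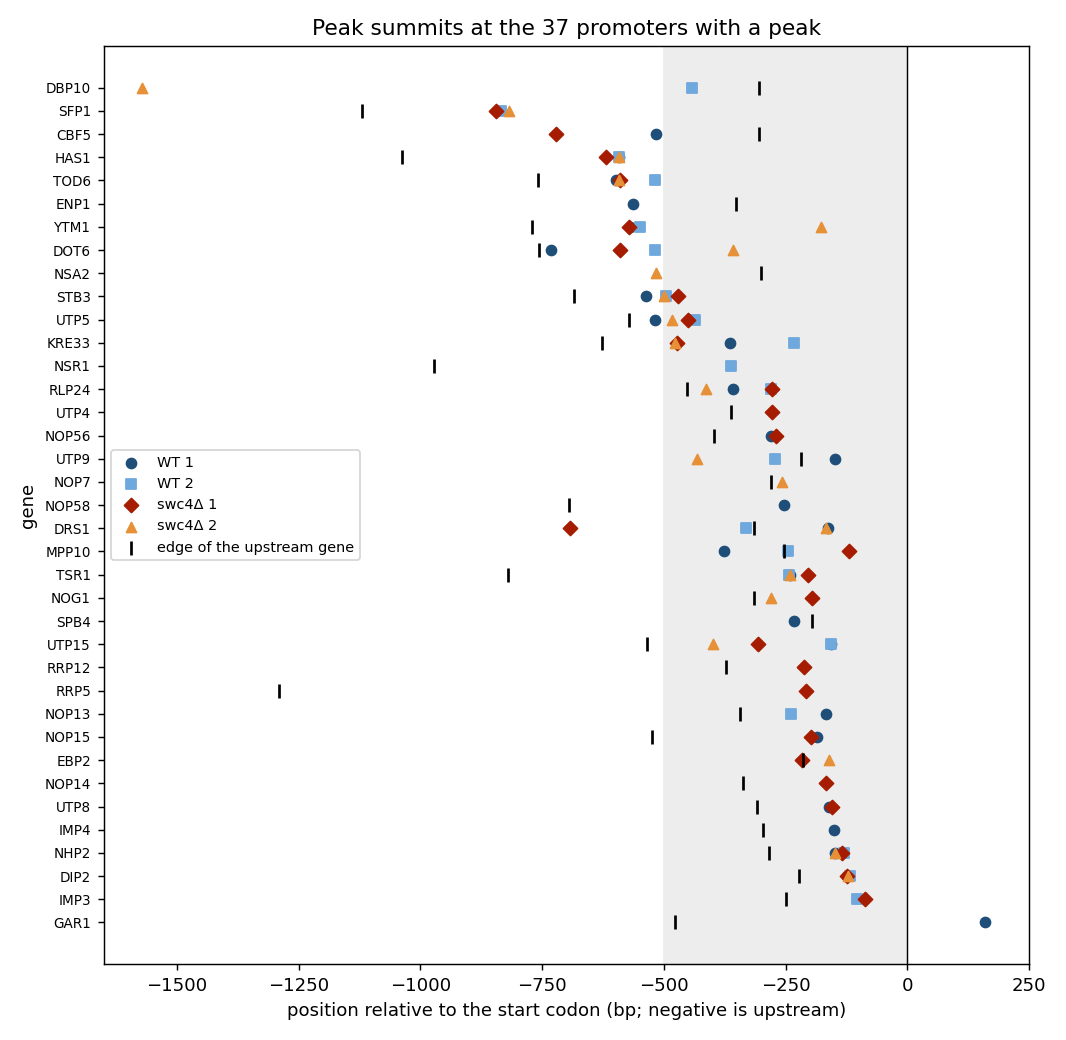
Position of the peak summit relative to the start codon (bp, negative upstream) at the 37 promoters with a peak, with 1 symbol per library; the grey band is the 500 bp promoter and black ticks mark the edge of the upstream gene. Summits of DIP2, NHP2 and TSR1 coincide across libraries, and those of UTP15 and KRE33 lie further upstream in swc4Δ. Most summits lie between the start codon and the neighbouring gene's edge, and some, as at DRS1 and DBP10, beyond that edge.

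Many of these peaks were shared with a neighbour. The upstream gap to the next protein-coding gene had a median of 342.5 bp for the 60 genes and 448 bp for all promoters, and it was under 500 bp at 42 of the 60. Of the 60 genes, 29 had a divergent and 31 a tandem upstream neighbour. A peak in at least 1 library was found at 22 of the 29 divergent promoters (75.9%) and at 15 of the 31 tandem ones (48.4%). Over all promoters these shares were 68.7% and 56.1%, in the same order. In tandem promoters 13 and 7 genes held a peak in WT, against 8 and 5 in swc4Δ, and in divergent ones 12 and 13, against 18 and 15. Over all promoters both kinds had higher mean shares in swc4Δ, by 9.33 points for divergent and 6.23 for tandem ones.

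Among the 13 genes open in every library, 10 had a divergent neighbour, as did 1153 of the 1867 promoters open in every library. At 6 of the 13 the summit lay nearer to another gene's start codon in all 4 libraries: RLP24 (nearer PAM18), DRS1 (COX17), HAS1 (TDA1), UTP5 (NCB2), STB3 (YDR169C-A) and TOD6 (YBL055C). At DIP2, TSR1 and DOT6 it lay nearest to their own in all 4. Neither of these 4-library counts was made for all promoters. Over every one of the 60 promoters with a peak, another gene's start was nearer at 44.0% and 45.0% in WT, against 53.8% and 70.0% in swc4Δ, and over all promoters at 33.7% to 35.7%. A shared peak cannot be assigned to either gene from these lists.

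Gap length went with openness here as elsewhere. Of the 39 genes with a gap of 448 bp or less, the median of all promoters, 3 were open in every library, and of the 21 with a longer gap, 10. Over all promoters the share open in every library was 18.9% and 20.7% below that median (gaps up to 280 bp, then up to 448 bp) and 41.6% and 43.3% above it (up to 731 bp, then longer). TSR1, with a gap of 820 bp to the divergent ribosomal protein gene RPS29B, and HAS1, with 1038 bp to TDA1, were among the long ones. DIP2, open in every library, had a gap of 223 bp to a tandem neighbour.

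The rest of the pathway, 100 further ribosome biogenesis genes listed by name, also had a peak less often than all promoters. A peak was found at 28 and 18 of them in WT, where all promoters had 46.3% and 38.6%. In swc4Δ it was found at 41 and 29, where all promoters had 55.9% and 44.6%, and the genotypes did not overlap. The 56 factors had 39.3% and 28.6% in both WT and swc4Δ, above the 100 genes in WT and just below them in swc4Δ. Of the 100, 11 were open in every library and 52 in none. Their peaks, like those at the factors, ranked below and were narrower than those of all promoters. The median list percentile was 41.2 and 46.7 in WT, against 50.1 and 43.2 in swc4Δ. Median widths were 374 and 410.5 bp in WT, against 373 and 425 bp in swc4Δ. Gains were seen at 7 (7% against 5.23% of all promoters): UTP6, RRP14, DBP4, MAK21, RPF2, ESF1 and MRT4. DBP4 lies on chromosome X and the other 6 on IV or XI. On IV, V, VIII and XI 6 of 34 genes were thus gained (17.6%), against 13.8% of all promoters there. On the other 12 chromosomes 1 of 66 was gained (1.52%), against 1.96% of all promoters. ESF1, a processome gene, had the highest folds of the 7, at 3.31 and 2.64. RIO2, a kinase gene of late 40S assembly, was the 1 lost, with folds of 1.99 and 1.96 in WT. Leaving out WT replicate 1 gave 16 gains and leaving out swc4Δ replicate 2 gave 15, and losses numbered 3 or 4 without WT replicate 1, WT replicate 2 or swc4Δ replicate 1. These looser calls were not counted over all promoters. On the other 12 chromosomes 19 and 15 of 66 promoters held a peak in WT, against 23 and 13 in swc4Δ, with overlap between the genotypes. On IV, V, VIII and XI 9 and 3 of 34 did in WT, against 18 and 16 in swc4Δ, without overlap, as for all promoters there.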

How the data were processed

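Each library had a peak list deposited by the authors, giving each peak its fold (a ratio to background) and the −log10 of its p-value and q-value. Per the submitters' processing notes, the tools were SAMtools 1.4, Bowtie2 2.3.1, deepTools 1.5.11, Trim Galore 0.5.0 and Picard 2.18.7, and the build was sacCer3. The peak caller, its settings and any Tn5 shift are not given in the sources used here. All folds lay within 0.01 of a whole step of 1 ladder per library, and Poisson tests on the resulting pileups returned the deposited −log10 p-values within 0.000150. The deposited genotype lists carry a whole-number score by the authors, of unstated scale.

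Gene positions were those of RefSeq (assembly R64) (59 of 60 matched by symbol, 1 by synonym), with strand read from systematic names. Where several peaks touched a promoter, that of highest fold was used. Overlap code was tested on simulated data. Computation used Python 3.11.15, pandas 2.3.3, numpy 2.4.6 and scipy 1.17.1. Members and lists were chosen with earlier results of these data known. Genes named in full were the regulators, gains, losses, genes without a peak, the extremes of rank and rank difference, and moved summits. Alternatives were thresholds, promoter lengths, overlap rules, chromosomes and libraries left out, and a replicate block; a chromosome-relative rank and leaving out the regulators were added after seeing the data. Promoter sequences and motifs were not analysed here. Duplicated fragments may not be independent molecules.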

Additional observations from a re-analysis of the deposited data

Results flagged for a closer look

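The authors' genotype lists, 1 per genotype and outside the comparisons above, touched 4 promoters that held no peak in any library: NOP1, NOP4, NOP12 and DBP9, all in the swc4Δ list and 0 in the WT list. The swc4Δ list held 2602 regions and the WT list 1002, so their lengths differ. They touched 29 and 9 of the 60 promoters (48.3% and 15.0%), against 54.3% and 22.0% of all promoters, with 9 of the 60 in both. In the authors' deposited table the 4 promoters had scores of 136, 158, 117 and 132 in swc4Δ, and DOT6 had 802 in swc4Δ and 475 in WT. The same table also listed NOG1 in both genotypes, with scores of 228 in swc4Δ and 192 in WT, although no WT library had a peak in its promoter.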

How the results depend on the processing

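Peaks record presence above a caller's threshold, so weak openings near a pileup of 37 to 40 fragments, the lowest listed, may be absent from a list without being closed, and 2 libraries a genotype bound every comparison. At a −log10 q of at least 5, 1 of the 60 genes was gained and 0 lost, the share difference was 8.33 points, and 0 other ribosome biogenesis genes were lost. With equal numbers of peaks (2115 per list) 1 was gained, EBP2. Promoters of 1000 bp gave a mean of the median percentile of 49.4 and a difference of 0.679. With the summit inside the promoter 6 genes were open in every library, the percentile was 27.65 and its difference -2.77, opposite in sign to the 6.45 reported. Without IV, V, VIII and XI, 1 gene was gained, 8 were open in every library and the percentile was 28.4. Fold relative to the chromosome gave 34.7 and a difference of 2.09, and leaving out the 4 regulators gave a percentile of 30.9. Leaving out 1 library gave 2 to 6 gains, 2 to 6 losses, a percentile of 38.0 to 47.8 and a difference of 4.76 to 13.2. Among other ribosome biogenesis genes it gave 7 to 16 gains and 1 to 4 losses, with no count over all promoters for either set. The cause was not tested. In fold, on a log scale, same-numbered libraries did not deviate together (correlation -0.0458 over the 1867 promoters with a peak in all 4 libraries). That correlation does not cover presence, which was higher in replicate 1 than in replicate 2 of both genotypes. Over all promoters the shares were 46.3% and 38.6% in WT, against 55.9% and 44.6% in swc4Δ. The labels tie no number to a batch. With the replicate block the mean differences, 0.833 points in share and 6.45 in percentile, are the same by construction. Within pairs 1 and 2 the share differed by 1.67 and 0 points and the percentile by 1.98 and 10.9. Of 106 repeats of the main results, 76 stayed within the spread between libraries or, for counts, within 1.5 times.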
